A study of Mus musculus with 2 samples.

Results

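The nuclei described here came from the paraventricular hypothalamus (PVH) of mice, held RNA of Sim1 and carried a hashtag labelled either KD or Ctrl. They were chosen as barcodes with at least 500 detected genes, exactly 1 positive hashtag and at least 1 UMI (a counted RNA molecule) of Sim1. A hashtag was positive at 105 UMIs for Ctrl, 61 for KD and 37 for Q153R. Of the 6173 barcodes, 2079 met this rule. They were 1180 of the 1966 singly tagged nuclei labelled Ctrl, or 60.0% (57.8–62.2), and 899 of the 1347 labelled KD, or 66.7% (64.2–69.3). All mice were 4 weeks old and carried Sim1-Cre and the Sun1-GFP reporter, controls included, so that Cre, driven by Sim1, places GFP on the nuclear envelope, and GFP-positive nuclei were sorted. The label Ctrl matches 7 mice with no change at Otp. No label says what KD stands for. It matches, by elimination, the 4 mice with Otp fl/+, a floxed allele over a wild-type allele, in which Cre can remove 1 copy. The other 6 mice of the 17 carried Otp Q153R/+ and are used only for values side by side. Nuclei of all mice went into 1 library, with 1 pool of mice per label. Genotype, individual mice and their collection therefore cannot be told apart, no p-value is given, and every interval is a 95% interval for counting error only.

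Otp and Sim1 encode transcription factors that are needed to form the neuroendocrine neurons of the PVH. These neurons make large amounts of peptide hormones such as oxytocin, vasopressin, corticotropin-releasing hormone and thyrotropin-releasing hormone. Peptide precursors are folded in the endoplasmic reticulum, cut by convertases and stored in dense-core granules, while chaperones of the cytosol keep other proteins folded under the control of heat shock factors.

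The pools held 7547327 UMIs (Ctrl) and 6238417 UMIs (KD) over gene rows, with a median of 5866 and 6506 UMIs per nucleus. Nuclei with exactly 1 Sim1 UMI, at the edge of the rule, were 289 in Ctrl and 191 in KD, with medians of 4659 and 5173 UMIs. Singly tagged nuclei without a Sim1 UMI, just outside it, numbered 786 and 448, with medians of 4466.5 and 4793.5 UMIs. Pan-neuronal markers summed to 14842 CPM in Ctrl and 15391 CPM in KD, where CPM is a gene's share of all gene UMIs of the pool, scaled to 1000000. The GABAergic gate used below is the 208 Ctrl and 96 KD nuclei with no Sim1 UMI and at least 2 UMIs over Gad1, Gad2 and Slc32a1. All 12 GABAergic markers summed to 59.9 CPM in Ctrl and 49.5 CPM in KD in the Sim1 nuclei, a ratio of 0.827 (0.713–0.958). Gad2 gave 43.1 and 30.3 CPM of these. The 9 markers not used for the gate summed to 9.94 CPM in Ctrl and 12.02 CPM in KD in the Sim1 nuclei. In the gate these 9 summed to 317 and 485 CPM. Of the 10 oligodendrocyte markers, 8 had a UMI in Ctrl and 10 in KD, and their sums were 64.3 and 99.5 CPM. The 11 astrocyte markers summed to 1489 CPM in Ctrl, with Gfap and Aqp4 at 0, and to 1572 CPM in KD, but Gpc5 alone gave 1409 and 1464 CPM of these. The other 10 summed to 79.9 CPM in Ctrl and 108 CPM in KD. Among them Slc1a3 had 17 UMIs in Ctrl and 63 in KD, a ratio of 4.48 (2.59–8.17). A single nucleus held 17.6% of its UMIs in Ctrl and another 20.6% in KD. Of the 10 only Slc1a2 was lower in KD, at 46.1 and 43.6 CPM, a ratio of 0.946 (0.804–1.11). The part of glial RNA in the results was not tested. Xist is the RNA that coats an inactive X chromosome. Nuclei with at least 3 Xist UMIs and none from Y-linked genes, called Xist nuclei below, were 70.8% of Ctrl (68.2–73.4) and 84.0% of KD (81.4–86.3). The part of this difference in the results was not tested, and values within the Xist nuclei are given beside them. The GABAergic gate differed more in sex-linked RNA. There Xist stood at 591 CPM in Ctrl and 1124 CPM in KD, and the Y-linked gene Uty at 133 and 6.55 CPM. In the Sim1 nuclei Xist stood at 992 and 1101 CPM and Uty at 44.5 and 15.2 CPM. Gate ratios below are not limited to Xist nuclei, and the part of this difference in them was not tested.

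Sim1 chose the nuclei, so its level is a description only. It stood at 617 CPM in Ctrl and 575 CPM in KD. Otp stood at 57.9 CPM (52.6–63.6) in Ctrl and 93.9 CPM in KD, a ratio of 1.62 (1.43–1.84), higher and not lower under the label KD. Which exons are floxed is not stated in the labels, and the libraries hold 3′ tags, so Otp UMIs do not check the labels, and the pools are named by their labels throughout. Wdr41, which starts 91.2 kb beyond the end of Otp on the same strand, went from 50.6 to 297 CPM, a ratio of 5.87 (5.25–6.57), and was 1.11 (0.676–1.79) in the GABAergic gate.

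Few genes differed between nuclei labelled KD and Ctrl by 1.5-fold. Of 31053 gene rows, 8118 had at least 200 UMIs over both pools and are called measured. Of these, 17 (0.209%) were at least 1.5-fold higher in KD and 36 (0.443%) at least 1.5-fold lower. Among the 2683 genes with at least 1000 UMIs, 46 (1.71%) were at least 1.25-fold higher and 44 (1.64%) at least 1.25-fold lower, a second count added after the data were seen. The median measured gene had a log2 ratio of KD over Ctrl of −0.04, and 3215 genes lay above a ratio of 1. The middle of the distribution was narrow, with quartiles at ratios of 0.898 and 1.05. Near the fold limit, no gene had a ratio from 1.5 to 2% above it and 6 lay within 2% below. At the lower limit 9 genes lay within 2% inside and 20 within 2% outside, so the lower count moves easily. In the Xist nuclei 15 of the 17 higher and 24 of the 36 lower genes were still past the fold, and within clusters of nuclei 11 and 23 were.

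**Figure D1:**
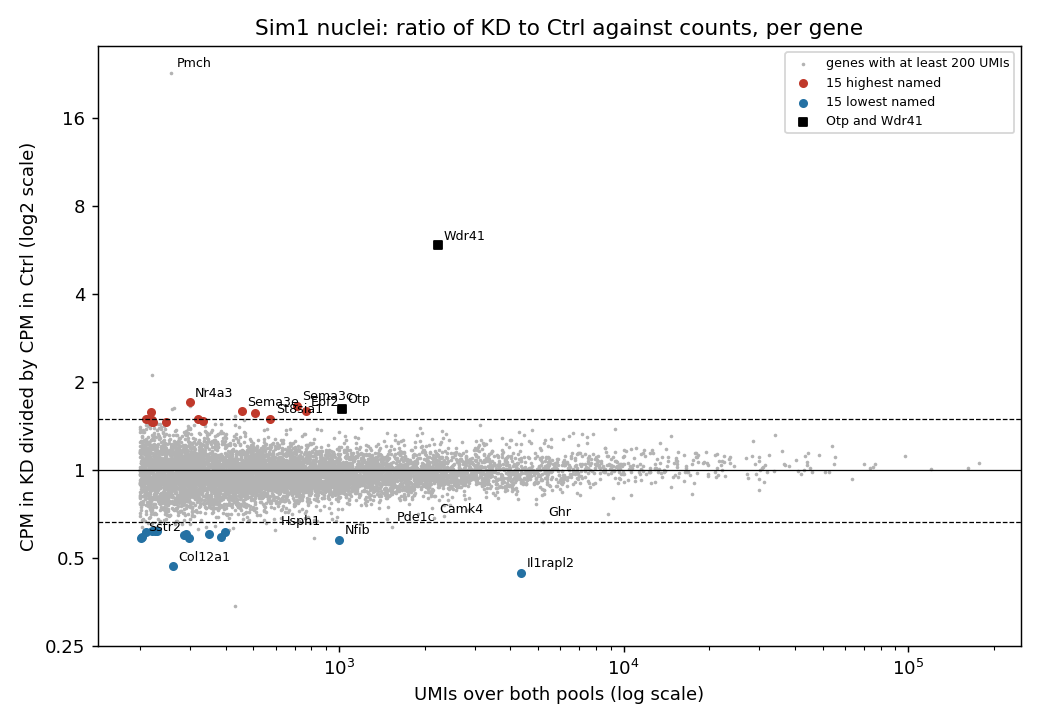
Each point is 1 of the 8118 measured genes, with its UMIs over both pools on a log axis and its KD to Ctrl ratio of CPM on a log2 axis; dashed lines mark 1.5-fold. Wdr41 at 5.87 stands far above the rest, the point above it is Pmch, and Il1rapl2 at 0.446 is the lowest gene with more than 1000 UMIs.

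In 5 of the 17 higher genes a single nucleus held over 10% of the UMIs of a pool. Pmch, Mbp, Bnc2 and Slc4a4 were among them. Pmch, which encodes melanin-concentrating hormone of the lateral hypothalamus, had 13 UMIs in Ctrl and 245 in KD, with 31.0% of the latter in 1 nucleus. Mbp, a myelin gene of oligodendrocytes, had 22.8% of its KD UMIs in 1 nucleus. These 5 genes are therefore not described as differences between the labels.

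Sema3c and Sema3e were both past the fold higher in nuclei labelled KD. They encode secreted semaphorins, which steer growing axons through plexin and neuropilin receptors. Sema3c (chromosome 5, 17574281 to 17730268, plus strand, GRCm38) stood at 39.7 CPM (300 UMIs) in Ctrl and 65.9 CPM (411 UMIs) in KD, a ratio of 1.66 (1.42–1.93). Sema3e, at 14025276 to 14256689 of the same strand, stood at 26.1 and 41.5 CPM, a ratio of 1.59 (1.32–1.92). In the Xist nuclei both ratios were 1.88. Sema3c was not higher everywhere. The 2079 nuclei fell into 18 clusters, built without the genes named here or on the gene lists. In the largest cluster, led by 5330439M10Rik and Sv2c and holding Crh among its leading genes, Sema3c went from 74.9 to 214 CPM, a ratio of 2.86 (2.13–3.87). In the cluster led by Foxp2 it went from 43.0 to 20.1 CPM, a ratio of 0.468 (0.217–0.945), and in the cluster that Sema3c itself led the ratio was 1.13 (0.839–1.53). Combined within clusters by the Mantel-Haenszel method, the ratio was 1.44 for Sema3c and 1.81 for Sema3e. Of the 4 clusters with at least 20 UMIs of Sema3e, 2 had an interval above 1. The other 2 had ratios of 0.436 (0.107–1.34) and 0.686 (0.314–1.38). Sema3c was also higher in the GABAergic gate, with 14 UMIs in Ctrl and 37 in KD, a ratio of 5.55 (2.93–11.1).

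Nr4a3, an orphan nuclear receptor gene induced by neuronal activity, stood at 16.4 CPM in Ctrl and 28.1 CPM in KD, a ratio of 1.71 (1.35–2.17) that was 1.97 in the Xist nuclei. Other activity genes did not share its ratio. Of 16 measured genes of the immediate early list, 7 lay above 1 (43.8%, near the 39.6% of all measured genes), and only Nr4a3 passed 1.5-fold. Nr4a1 was at 1.10 (0.918–1.31), Junb at 1.15 (0.923–1.44), Fosl2 at 1.33 (1.08–1.65), Bdnf at 0.840 (0.712–0.990) and Vgf at 0.796 (0.688–0.921). The list's median log2 ratio was −0.04, as for all genes.

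Ebf2, a helix-loop-helix transcription factor gene, went from 43.9 to 69.6 CPM, a ratio of 1.59 (1.37–1.84). Its UMIs sat in few nuclei, 75 in Ctrl and 80 in KD, and the ratio within clusters was 1.34. In the cluster it marks together with Bnc2 it went from 593 to 1000 CPM, a ratio of 1.69 (1.38–2.07), and in the cluster led by 9530026P05Rik it went from 97.0 to 60.9 CPM. That cluster took 8.81% of Ctrl nuclei (7.26–10.6) and 13.0% of KD nuclei (10.9–15.4). 9530026P05Rik itself was at 17.2 and 32.5 CPM, a ratio of 1.89 (1.51–2.37), which was 1.16 (0.863–1.57) in the Xist nuclei.

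Ostm1, whose protein partners a lysosomal chloride transporter, was at 12.6 and 19.9 CPM, a ratio of 1.58 (1.20–2.09). St8sia1, the sialyltransferase that starts the b-series gangliosides, was at 34.1 CPM (257 UMIs) and 51.0 CPM (318 UMIs), a ratio just under the fold (interval 1.27–1.77). Of the noncoding genes, Lncenc1 was at 1.56 (1.31–1.87), Gm26870 at 1.66 (1.31–2.11) and Gm16124 at 2.12 (1.60–2.82). The last of these rests on 80 UMIs in Ctrl and 140 in KD. The other 8 named genes at the top, Zfp831, Rassf5, Filip1, Cldn34c1, Prkg2, Nabp2, Cdkl4 and Pdia5, had ratios from 1.46 up to just under the fold.

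**Figure D2:**
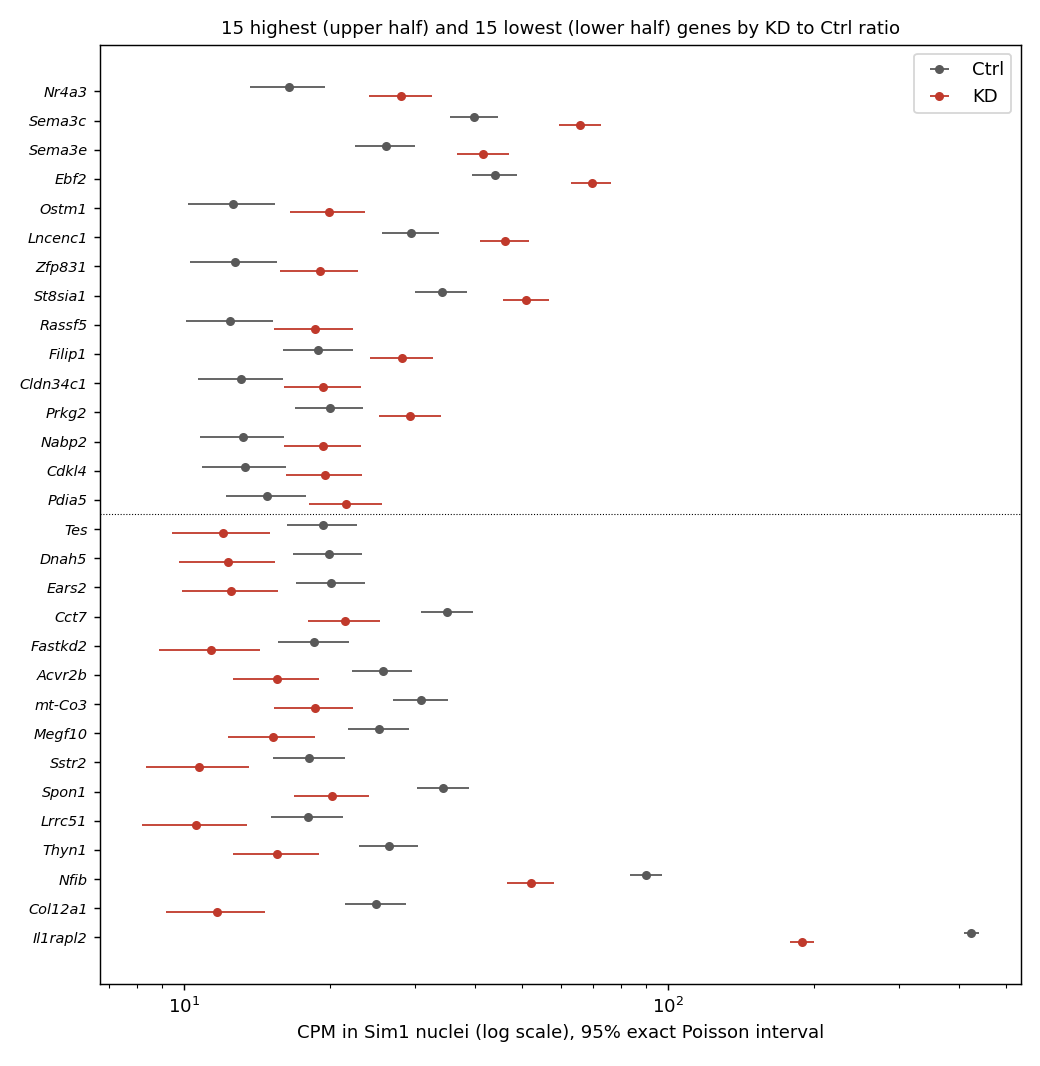
CPM in Ctrl (grey) and KD (red) on a log axis, with exact Poisson intervals, for the 15 genes with the highest and the 15 with the lowest KD to Ctrl ratio under the naming rule. Intervals of the 2 labels do not overlap for Sema3c (39.7 and 65.9 CPM), Il1rapl2 (424 and 189 CPM) or Nfib (90.1 and 52.1 CPM), among others. Most of the genes stand between 10 and 50 CPM with wide intervals.

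Outside the Y-linked genes, the lowest ratio was that of a synaptic adhesion gene. Il1rapl2 (chromosome X, 137570608 to 138846946, plus strand) encodes a membrane protein of the interleukin-1 receptor family that sits at synapses. It stood at 424 CPM (409–439) in Ctrl, from 3199 UMIs in 352 nuclei, and at 189 CPM in KD, from 1180 UMIs in 200 nuclei. The ratio was 0.446 (0.417–0.477) over all nuclei, 0.519 (0.476–0.565) in the Xist nuclei and 0.508 within clusters. At equal depth 26.5% of Ctrl and 17.4% of KD nuclei held a UMI. Of the 14 clusters with at least 20 UMIs, 11 were lower in KD, 9 of them with an interval below 1. The highest Ctrl level, 2261 CPM, was in the cluster led by 6530403H02Rik and Nfib, where KD stood at 759 CPM, a ratio of 0.336 (0.281–0.398). That cluster held 6.10% of Ctrl nuclei (4.80–7.62) and 3.34% of KD nuclei (2.26–4.73). In the cluster led by Bnc2 and Ebf2 the order was opposite, with 2 UMIs in Ctrl and 55 in KD, a ratio of 24.9 (6.57–211). In the GABAergic gate Il1rapl2 was at 479 and 565 CPM, a ratio of 1.18 (1.03–1.35). The other 64 measured synaptic adhesion genes had ratios from 0.833 to 1.42, and the list's median log2 ratio was 0.06.

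Other genes of the lower end had varied roles. Col12a1, a fibril-associated collagen gene, went from 24.9 to 11.7 CPM, a ratio of 0.470 (0.353–0.619). Spon1, which encodes the secreted adhesion protein F-spondin, went from 34.3 to 20.2 CPM, a ratio of 0.589 (0.472–0.731). Both were as low in the Xist nuclei, at 0.478 and 0.511. Nfib, a transcription factor gene of the nuclear factor I family, went from 90.1 to 52.1 CPM, a ratio of 0.578 (0.505–0.661). It was 0.710 (0.603–0.835) in the Xist nuclei and 0.863 within clusters, beside the smaller share of the Nfib-rich cluster given above. Acvr2b, an activin receptor gene, was at 0.605 (0.469–0.776), and Megf10, an engulfment receptor gene, at 0.602 (0.465–0.774). Cct7, a subunit of the cytosolic chaperonin that folds actin and tubulin, went from 35.0 to 21.5 CPM, a ratio of 0.614 (0.495–0.759). Fastkd2 and Ears2, nuclear genes for mitochondrial RNA handling and translation, were at 0.614 (0.454–0.822) and 0.621 (0.466–0.821).

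Receptors for peptides and hormones spread widely. Of 74 listed, 25 were measured and 10 lay above 1 (40.0%, against 39.6% of all measured genes). None was past 1.5-fold higher and 3 were past it lower, where 0.443% of all measured genes were. Ghr, the growth hormone receptor gene (chromosome 15, 3317760 to 3583492, minus strand), was the most abundant of them, with 445 CPM (430.1–460.4) in Ctrl and 297 CPM in KD, a ratio of 0.666 (0.629–0.705). It was also 0.666 in the Xist nuclei, and within clusters 0.711, no longer past the fold. Ghr was lower in KD in 13 of 18 clusters and its interval lay below 1 in 10. In the cluster led by Sst, where Ghr was highest, it went from 2133 to 1575 CPM, a ratio of 0.738 (0.660–0.825). In the cluster led by Oxt it went from 1073 to 366 CPM, a ratio of 0.341 (0.257–0.447). In the GABAergic gate the ratio was 1.12 (0.914–1.37). Sstr2, a somatostatin receptor gene, went from 18.2 to 10.7 CPM, a ratio of 0.592 (0.435–0.798). Calcrl, which encodes the shared receptor of calcitonin gene-related peptide and adrenomedullin, went from 22.8 to 14.9 CPM, a ratio of 0.654 (0.503–0.847) that within clusters was 0.708, no longer past the fold. Just outside the fold, Agtr1a, the angiotensin receptor gene, was at 0.668 (0.585–0.763). At the other end Lifr, the leukaemia inhibitory factor receptor gene, was at 1.28 (0.992–1.65) and Prlr, the prolactin receptor gene, at 1.14 (1.03–1.26).

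Chaperone genes were lower in nuclei labelled KD as a group. Of the 26 heat shock chaperone genes listed, 19 were measured, 17 of these lay below a ratio of 1 (89.5%, against 60.4% of all measured genes) and 2 were past 1.5-fold lower, where 0.443% of all measured genes were. The median log2 ratio was −0.28 (ratio 0.823), against −0.04 over all genes. In the Xist nuclei the median was −0.23 and within clusters −0.27. Set against genes of like length, an alternative added after the data were seen, it was −0.17. Hsph1, which encodes the nucleotide exchange factor HSP105 of the HSP70 system, stood at 52.3 CPM (395 UMIs) in Ctrl and 32.5 CPM (203 UMIs) in KD, a ratio of 0.622 (0.522–0.738). Ahsa1, an activator of the HSP90 ATPase, went from 17.6 to 11.2 CPM, a ratio of 0.637 (0.470–0.857). Hsf1, the heat shock factor gene itself, was at 0.736 (0.596–0.906), and Hsf2 at 0.821 (0.706–0.955). The HSP90 co-chaperone gene Chordc1 was at 0.776 (0.695–0.865) and the mitochondrial chaperonin genes Hspe1 and Hspd1 at 0.788 (0.626–0.989) and 0.823 (0.666–1.01). The exceptions were the constitutive HSP70 gene Hspa8, at 1.16 (0.997–1.36), and Hsp90aa1, at 1.02 (0.893–1.16).

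Several of these genes carry the binding sequence of heat shock factors, units of GAA in alternating direction, near the start of the gene. A triplet was searched as GAANNTTCNNGAA or TTCNNGAANNTTC, on both strands, in windows from 250 bases before to 50 after each RefSeq start (GRCm38.p6). It was found in 5 of the 15 chaperone genes with an entry (33.3%), Hsph1, Chordc1, Hspe1, Hspd1 and Dnajb6. A gene counted if any of its windows held the triplet. By the same count 0.612% of the 6211 measured genes with an entry had it, and 0.603% of all 32851 windows held it. The pair GAANNTTC or TTCNNGAA, which every triplet contains, was found in 8 of the 15 genes (53.3%). It was in 13.4% of the measured genes with an entry and in 15.1% of all windows. The sites are shown as 30 bases each, in the direction of the gene, with the triplets in capitals to show the letters that heat shock factors recognise. Where triplets overlap the capitals run together.
Hsph1: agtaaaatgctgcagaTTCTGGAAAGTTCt
Chordc1: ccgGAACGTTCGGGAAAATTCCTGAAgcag
Hspe1: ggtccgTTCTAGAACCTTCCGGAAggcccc
Dnajb6: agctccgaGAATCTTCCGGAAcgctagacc
The Hsph1 site lies at chr5:149636287-149636316 on the minus strand, with its capitals from 37 bases after the start. The Chordc1 site lies at chr9:18292260-18292289, with its capitals, 3 overlapping triplets, from 4 bases before the start. The Hspe1 site at chr1:55088053-55088082 has its capitals from 89 bases before the start and is shared with Hspd1, its divergent neighbour. The Dnajb6 site lies at chr5:29735844-29735873. Genes with and without the triplet were found among the low ratios. The 5 genes with it had ratios of 0.622 (Hsph1), 0.776 (Chordc1), 0.788 (Hspe1), 0.823 (Hspd1) and 0.976 (0.865–1.10, Dnajb6). Ahsa1 and Cacybp, at 0.637 and 0.730, had neither triplet nor pair in the window.

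Summed over the 19 measured genes, chaperone RNA made up 1124 CPM in Ctrl and 968 CPM in KD, a ratio of 0.861 (0.833–0.890). It was 0.864 (0.832–0.897) in the Xist nuclei. The sum was lower in KD in 15 of 18 clusters, and in 8 of these the interval lay below 1. Over the clusters the ratio of the sum ranged from 0.676 (0.537–0.845) to 1.30 (0.838–2.08). The latter was in the cluster led by the astrocyte gene Slc1a3, which held 3 and 8 nuclei. The median measured gene was also lower in KD in every cluster except the one led by Ucn3. Its log2 ratio ran from −0.096 to 0.0094 outside the Slc1a3-led cluster, where it was −0.39. For these medians a gene without a UMI in a label was given a small value in place of 0. That weighs most in the Slc1a3-led cluster, with its 3 Ctrl nuclei, so its −0.39 is not a reliable level. The clusters are parts of the same 2 pools, not repeats. The sum was as low in the GABAergic gate, whose nuclei had no Sim1 UMI, with 1129 and 947 CPM and a ratio of 0.839 (0.760–0.924). Nuclei labelled Q153R stood at 1143 CPM.

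**Figure D3:**
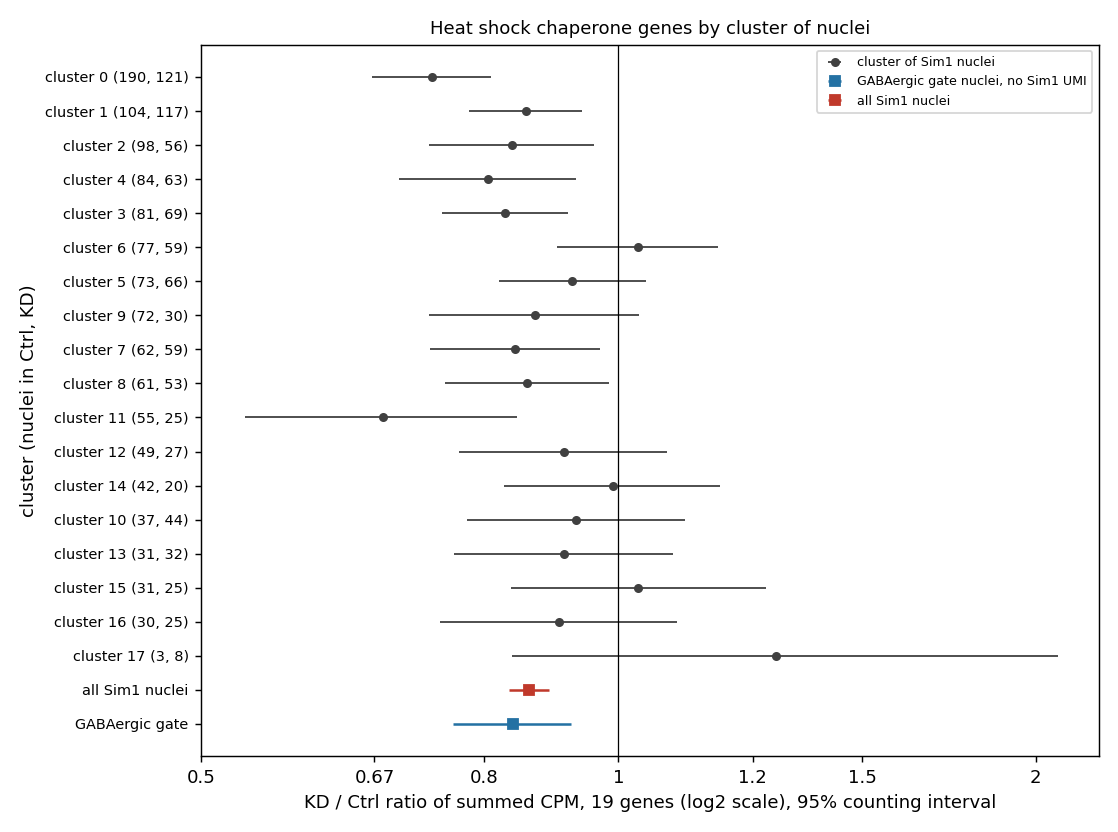
KD to Ctrl ratio of the summed CPM of 19 heat shock chaperone genes on a log2 axis, with 95% counting intervals, for each of 18 clusters of Sim1 nuclei (black), for all of them (red, 0.861) and for the GABAergic gate (blue, 0.839). Of the clusters, 15 lie left of 1 and no interval lies wholly to its right.

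Genes of the secretory pathway also lay low, by less. Of 22 measured genes of the unfolded protein response, 20 lay below 1 (90.9%, against 60.4% of all measured genes). None was past 1.5-fold in either direction, and the median log2 ratio was −0.15. Set against genes of like length, the median was −0.053. Xbp1, the transcription factor gene of that response, went from 38.2 to 29.0 CPM, a ratio of 0.760 (0.628–0.919). Hspa5, the main HSP70 of the endoplasmic reticulum, was at 0.859 (0.779–0.948), and the disulphide isomerase gene Pdia3 at 0.839 (0.744–0.946). Atf6, another sensor of the response, was the highest at 1.05 (0.945–1.17). The summed level was 1417 CPM in Ctrl and 1274 CPM in KD, a ratio of 0.899 (0.873–0.925), and 0.940 (0.863–1.02) in the GABAergic gate.

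Of 34 measured genes of peptide processing and dense-core granules, 28 lay below 1 (82%, against 60.4% of all measured genes). None was past 1.5-fold, and the median log2 ratio was −0.14. Scg3, a granin that sorts cargo into granules, was the lowest. It went from 84.4 to 62.4 CPM, a ratio of 0.739 (0.650–0.839). Cadps2, which primes granules for release, went from 399 to 306 CPM, a ratio of 0.768 (0.725–0.814). The granule protein genes Resp18, Pcsk1n and Scg2 were at 0.796 (0.748–0.846), 0.798 (0.753–0.845) and 0.807 (0.752–0.866). The convertase genes split, with Pcsk1 at 0.892 (0.813–0.978) and Pcsk2 at 1.02 (0.977–1.05). The granule calcium sensor gene Syt7 was highest, at 1.23 (1.09–1.39), beside Syt9 at 1.17 (1.05–1.30). The summed level went from 8679 to 8045 CPM, a ratio of 0.927 (0.916–0.938), while in the GABAergic gate it was 1.09 (1.06–1.13). Of the 18 clusters of Sim1 nuclei 14 were lower, 7 with an interval below 1, and 2 had an interval above 1. These 2 were the cluster led by Avp, at 1.10 (1.04–1.16), and the cluster led by Col19a1, at 1.06 (1.003–1.13). As given above, the median measured gene was also lower in all clusters except the one led by Ucn3. The difference between the gate and the Sim1 nuclei was not tested.

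**Figure D4:**
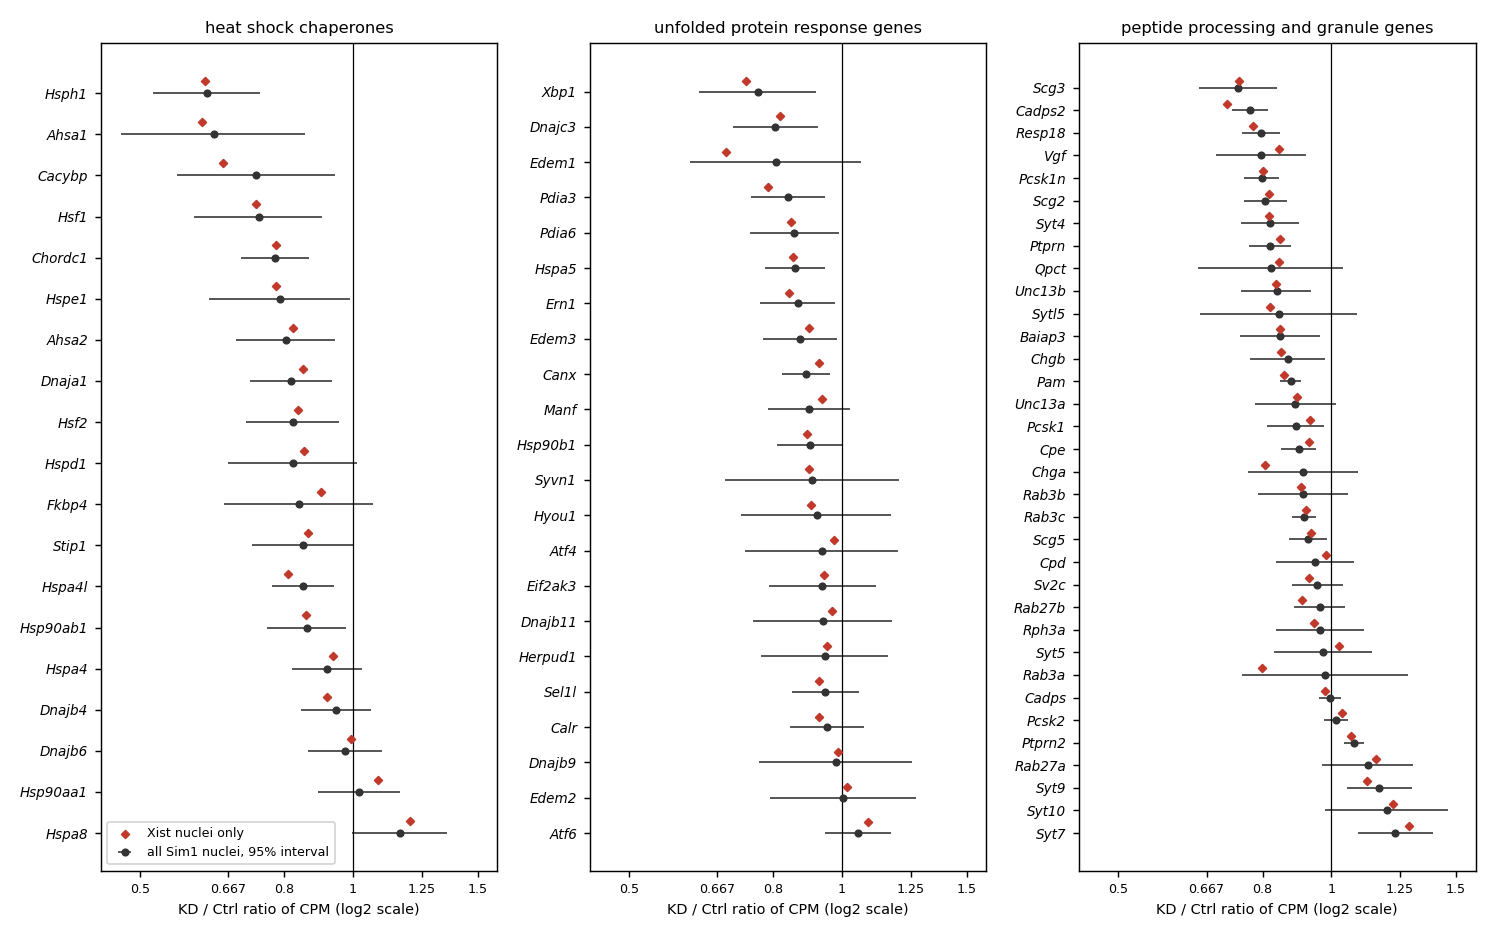
KD to Ctrl ratios of single genes with 95% counting intervals (black, all Sim1 nuclei) and in the Xist nuclei alone (red diamonds), on log2 axes, for heat shock chaperones, unfolded protein response genes and peptide processing and granule genes. Most points lie left of 1 in each panel, from Hsph1 at 0.622 to Hspa8 at 1.16 among the chaperones.

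Of 25 measured genes of lipid synthesis, 20 lay below 1 (80%, against 60.4% of all measured genes). Their median log2 ratio was −0.12, or −0.065 set against genes of like length. Nsdhl, an enzyme late in cholesterol synthesis, was lowest at 0.707 (0.533–0.934). Hmgcs1, an early enzyme of that pathway, was at 0.764 (0.624–0.934). Of 48 measured proteasome, autophagy and lysosome genes, 31 lay below 1 (64.6%, close to the 60.4% of all measured genes), with a median of −0.11, or −0.053 set against genes of like length. Psma5, a subunit of the proteasome core, was lowest at 0.756 (0.600–0.950), and the regulatory subunit gene Psmd2 highest at 1.35 (1.01–1.79). No gene of either group was past 1.5-fold.

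Several lists of channel, guidance and synapse genes had medians just above 0. Of 40 measured potassium channel genes 28 lay above 1 (70%, against 39.6% of all measured genes), with a median log2 ratio of 0.07. Their summed ratio was 1.02 (1.01–1.03), and 0.992 (0.984–1.001) in the Xist nuclei. By cluster 9 intervals of the sum lay above 1 and 6 below. Kcnab1, a subunit that speeds inactivation, went from 53.8 to 73.7 CPM, a ratio of 1.37 (1.20–1.57). The G-protein-gated channel gene Kcnj3 was lower, from 554 to 454 CPM, a ratio of 0.819 (0.781–0.859). Of 44 measured axon guidance genes 29 lay above 1 (65.9%), with a median of 0.06. Past 1.5-fold higher were 2 of them (Sema3c and Sema3e), where 0.209% of all genes were. Among the rest, the semaphorin gene Sema6d and the receptor gene Plxna4 were at 1.37 (1.29–1.45) and 1.31 (1.24–1.39), and Sema3d was lowest at 0.723 (0.552–0.942). Synaptic vesicle genes had a median of 0.05, with 25 of 36 above 1 (69.4%). Of 38 measured ionotropic and metabotropic receptor genes for glutamate and GABA, 22 lay above 1 (57.9%). Grm8 was highest, from 576 to 797 CPM, a ratio of 1.38 (1.33–1.44). Chrm3, a muscarinic receptor gene, was at 1.36 (1.25–1.48) and 1.60 (1.45–1.77) in the Xist nuclei, and the serotonin receptor gene Htr7 at 0.670 (0.573–0.782). These shifts of list medians were small beside the spread among members.

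**Figure D5:**
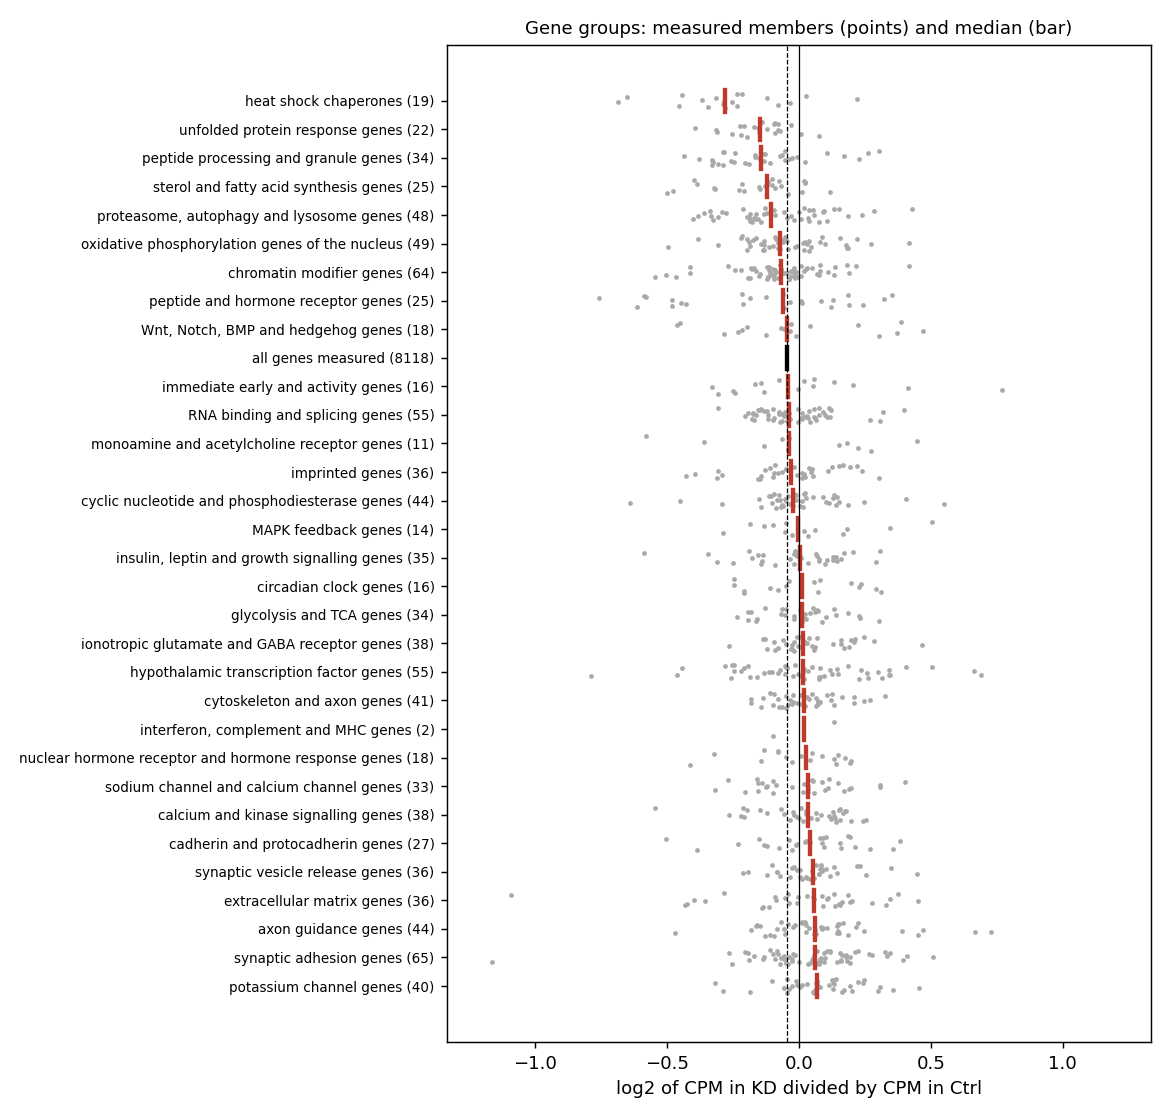
Each row is a gene list with its number of measured members; points are members and bars the median, as log2 of the KD to Ctrl ratio of CPM, with the median of all 8118 genes dashed at −0.04. Of the lists plotted, heat shock chaperones are the lowest at −0.28 and potassium channels the highest at 0.07.

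Single genes stood out within the lists of signalling and chromatin genes. Pde1c, a calmodulin-dependent phosphodiesterase gene, went from 133 to 85.1 CPM, a ratio of 0.641 (0.576–0.713), the only one of 44 measured cyclic nucleotide genes past 1.5-fold. Within clusters it was 0.711 (0.639–0.790), no longer past the fold. Camk4, a calcium-dependent kinase gene of the nucleus, went from 183 to 125 CPM, a ratio of 0.684 (0.626–0.747), against a list median of 0.04 over 38 genes. The chromatin remodeller gene Chd7 was at 0.685 (0.579–0.809) and the polycomb-associated gene Asxl3 at 1.34 (1.20–1.48), in a list of 64 with a median of −0.07. Of these 64 genes 17 lay above 1 (26.6%, against 39.6% of all measured genes). Rbfox1, a neuronal splicing factor gene, went from 2157 to 2841 CPM, a ratio of 1.32 (1.29–1.35), which was 1.21 within clusters.

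Among 4 measured mitochondrial genome transcripts the median log2 ratio was −0.56, with mt-Co3 at 0.602 (0.478–0.756), but in the Xist nuclei the median was −0.19 and mt-Co3 at 0.850 (0.647–1.12). The mitochondrial share of all UMIs was 0.0138% in Ctrl and 0.0100% in KD. Short genes lay lower than long genes. With genes split by length into 4 groups of like size, the median log2 ratio was −0.09 for genes up to 20.1 kb, −0.07 and −0.05 in the middle groups and 0.02 for genes of 96.9 kb or more. The part of gene length in the lists' medians was not separated by a test.

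Around Otp only its near neighbours differed by 1.5-fold. Of the genes within 2 Mb with at least 50 UMIs, Wdr41, Otp, Gm48350 and Gm48420 were at least 1.5-fold higher in KD. Gm48350 and Gm48420 fell short of the 200 UMIs of a measured gene. Besides Otp and Wdr41, 5 measured genes lay within 500 kb of Otp and 11 from 500 to 2000 kb. None of these was past the fold, where 0.209% of all measured genes were higher and 0.443% lower. Gm48350 was at 2.29 (1.42–3.76) and Gm48420 at 3.16 (1.99–5.18), with 28 and 26 UMIs in Ctrl. Both are uncertain: Gm48350 lies antisense to Wdr41 and Gm48420 to Pde8b, and whether strand was used in counting is not stated. Gm48420 also lies on the strand of Wdr41, starting at 95024301 where Wdr41 ends at 95023314. Whether its UMIs came from RNA of either neighbour was not tested. Tbca on the other side of Otp was at 1.12 (0.997–1.25) and Pde8b, beyond Wdr41, at 1.09 (1.03–1.17). Farther away Papd4 was at 0.798 (0.723–0.880) and Aggf1 at 1.25 (1.02–1.54). Over the autosomes the median log2 ratio of measured genes ran from −0.07 on chromosome 19 to −0.02 on chromosome 15, and it was −0.06 on chromosome X.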

How the data were processed

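For 1 expression library the authors deposited a matrix of raw UMI counts, unnormalized, with a row for each of 31053 genes and 3 hashtags. The submitters' processing notes name Cell Ranger 6.0.0 and mm10, and the matrix header names version 7.0.0. Neither says which annotation, strand or intron setting was used. Gene positions are from GENCODE vM21 (GRCm38) and promoter windows from RefSeq (GRCm38.p6).

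Nuclei with more than 1 positive hashtag (1124) were left out as doublets. Doublets within a pool were kept, and no caller was run. UMIs were summed over nuclei per label and divided by the summed gene UMIs, as CPM, with exact Poisson intervals. Ratios have the exact conditional binomial interval, shares the Clopper-Pearson interval, and ratios within clusters are Mantel-Haenszel ratios, all at 95%. A gene is called past the fold at a ratio of 1.5 or its inverse with at least 200 UMIs over both pools. For shares at equal depth nuclei were thinned to 3382 UMIs, which kept 1039 nuclei in Ctrl and 832 in KD. Clusters came from the 2000 most variable genes, without genes on a list or named under the rule, 30 principal components, 15 neighbours and Leiden resolution 1 (scanpy 1.11.5, leidenalg 0.10.2). Scripts used Python 3.11.15, numpy 2.4.6, scipy 1.17.1 and pandas 2.3.3, and were tested on simulated data.

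Named genes had at least 200 UMIs, with no nucleus holding over 10% of a gene's UMIs in a pool. They were the 15 highest and 15 lowest ratios, 3 each way with clone-type names, in each list the 3 highest and 3 lowest past 1.5-fold (otherwise the highest and lowest member) and genes within 2 Mb of Otp with 50 UMIs. Neuropeptide and sex-linked genes were left out. Other genes were named after their values were seen. The nuclei, lists and rules were chosen with earlier results of these data known. The lists come from general knowledge of the pathways. Some named items are not reported here.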

Additional observations from a re-analysis of the deposited data

How the results depend on the processing

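The count of genes at least 1.5-fold higher in nuclei labelled KD, 17 as reported, moved the most. It was 11 with the hashtag thresholds doubled and 11 with nuclei thinned to equal depth, 34 from the mean of per-nucleus CPM, 3 at a fold of 2, 219 at a minimum of 50 UMIs, 2 at 1000 UMIs and 46 at 1.25-fold among genes with 1000 UMIs. The count of genes lower in KD, 36, was 281, 5 and 3 at a minimum of 50 UMIs, at 1000 UMIs and at a fold of 2. With the median gene's ratio set to 1, counts were 27 higher and 26 lower, and with ratios centred by gene length 27 and 25, against 17 and 36 as reported. The heat shock median of −0.28 was −0.16 after thinning (13 genes left), −0.17 centred by gene length and −0.12 at 1000 UMIs (5 genes left). The unfolded protein response median of −0.15 was −0.053 centred by gene length, and the granule median of −0.14 was −0.10 both centred by gene length and with the median gene set to 1. These medians stayed below 0 under every alternative run. The median of oxidative phosphorylation genes changed sign from −0.07 to 0.019 centred by gene length, and that of RNA binding and splicing genes from −0.04 to 0.0054 with the median gene set to 1 and 0.023 centred by gene length. Beyond the centring itself, the cause was not tested. In all, 14 of 32 list medians crossed 0 under at least 1 alternative, each within 0.072 of 0 as reported, among them immediate early, circadian, imprinted, cyclic nucleotide, transcription factor and monoamine receptor genes. Of the values for single named genes, 1576 stayed within the counting interval and 48 moved outside it. No named gene past 1.5-fold crossed a ratio of 1. For the other named genes crossings were not counted, and Sv2c, near Otp, was at 0.955 over all nuclei and 1.06 within clusters. Nfib ran from 0.498 to 0.863 and 9530026P05Rik from 1.16 to 2.10. No paired analysis was possible because each label has 1 pool, and for the same reason no replicate could be left out. Depth limits genes near 200 UMIs, whose counting intervals are wide. The alternatives centred by gene length, at 1.25-fold and without the astrocyte-led cluster were chosen after seeing the data.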

Other observations

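Several gene groups not described above were close to even between the labels. Of 16 measured circadian clock genes 8 lay above a ratio of 1 (50%, against 39.6% of all measured genes), with the median log2 ratio at 0.01. The clock repressor gene Per2 was highest at 1.24 (0.991–1.55). Cytosolic ribosomal protein genes had a median of −0.02 over 53 genes, and glycolysis and citric acid cycle genes 0.01 over 34. Cytoskeleton and axon genes ran from the microtubule regulator gene Stmn1 at 0.881 (0.728–1.06) to the spectrin gene Sptb at 1.25 (1.02–1.53). Of 36 measured imprinted genes 16 lay above 1 (44.4%), and Calcr, the calcitonin receptor gene, was lowest at 0.743 (0.665–0.829).

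Nuclei labelled Q153R, from another pool of the same library, are given side by side for the genes that stood out. Ghr was at 385 CPM there, against 445 in Ctrl and 297 in KD. Il1rapl2 was at 294 CPM, against 424 and 189. Sema3c was at 63.1 CPM, against 39.7 and 65.9, and Wdr41 at 77.1 CPM, against 50.6 and 297. Hsph1, with the lowest KD to Ctrl ratio on the heat shock list, was at 62.1 CPM, against 52.3 and 32.5. Each level comes from 1 pool, and the pools differ in sex make-up. Xist nuclei were 47.0% of Q153R, against 70.8% of Ctrl and 84.0% of KD. Within the Xist nuclei Il1rapl2 was at 299 CPM in Ctrl and 155 CPM in KD. The Q153R levels given are not limited to Xist nuclei.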
